A study of Schmidtea mediterranea with 10 samples.

Results

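The genes described here are 78 of the 36035 planarian genes measured, those whose transcripts stood out most sharply in cells sorted for agat transcripts. They were chosen from measured values. A gene had to average at least 10 CPM (assigned counts scaled to a common library total) over the agat libraries and to be higher in every agat-positive than in every agat-negative library. Its log2 ratio of mean CPM + 1, agat-positive over agat-negative (called A), had to be 3 or more. Its log2 ratio of CPM + 1 in the piwi-1 pair, positive over negative (called P), had to be above -1. The 3 agat genes that the probes target were left out. Of 8374 genes at 10 CPM or more, 364 had agat groups that did not overlap in this direction (4.35%). An A of 3 or more was reached by 83 of the 8374 genes (0.991%), 82 of which did not overlap, and 81 of these had a P above -1.

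The cells came from whole asexual Schmidtea mediterranea of strain CIW-4, wild type and starved for at least 2 weeks. They were fixed while being dissociated (ACME), labelled by hybridization chain reaction and sorted by fluorescence. Their RNA was amplified with SMART-seq v4 and made into Nextera XT libraries. The groups are 4 agat-positive and 4 agat-negative libraries, made with a mixture of probes against the 3 agat genes, and 1 piwi-1-positive and 1 piwi-1-negative library. Worms were pooled before dissociation, and the labels call the agat libraries biological replicates without saying whether a number marks a separate pool of worms, so the spread between them may be partly technical. Both agat libraries numbered 4 carry column names of another form than the other 6 agat libraries. Values of 4 replicates are given in the order of their numbers, 1 to 4.

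The agat genes are named for glycine amidinotransferase, the enzyme that makes the precursor of creatine, and they mark late, post-mitotic progenitors of the planarian epidermis. These progenitors descend from neoblasts, the dividing stem cells marked by the PIWI-family gene piwi-1, and move outward to replace the animal's surface. The files pair none of the 36035 IDs with a gene name, so the 78 genes are given by ID and no role is stated for them.

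Libraries held 35081410 to 51821158 assigned counts. Unmapped reads made up 34.5% of agat-negative replicate 4 and 29.7% of the piwi-1-positive library, and 19.7% to 24.5% of the others. piwi-1, the only named marker of another cell type, had levels (CPM) of 180, 382, 393 and 309 in the positive gate, replicates 1 to 4, against 573, 472, 545 and 398 in the negative gate.

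Together the 78 genes held a larger share of the transcripts in every positive than in every negative library. Their share of assigned counts was 7.42%, 1.46%, 1.22% and 6.76% in the 4 agat-positive replicates, against 0.0705%, 0.248%, 0.421% and 0.113% in the 4 agat-negative ones. Positive replicates 1 and 4 stood about 5 times above positive replicates 2 and 3, and the lowest positive library stood above the highest negative one. The mean share was 4.21 ± 3.33% in agat-positive cells, against 0.213 ± 0.158% in agat-negative cells (SD, n = 4 each). In TPM, the authors' transcript levels scaled by length, the share was 12.7 ± 9.69% in agat-positive cells, against 0.636 ± 0.521% in agat-negative cells (SD, n = 4 each). These shares follow from how the genes were chosen and are a description. In such bulk libraries more agat-expressing cells and more of these transcripts per cell cannot be told apart. piwi-1 was lowest in positive replicates 1 and 4, where the share was highest, and its part in the result was not tested.

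**Figure D1:**
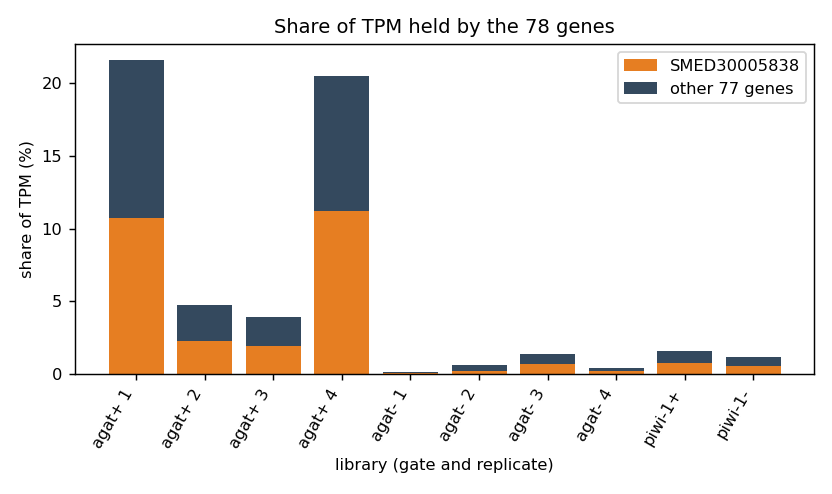
Share of all TPM (y axis, %) held by the 78 genes in each of the 10 libraries (x axis, gate and replicate), with SMED30005838 drawn apart from the other 77 genes. The bars of agat-positive replicates 1 and 4 reach 21.6% and 20.5%, and those of the agat-negative libraries 0.144% to 1.36%.

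A single gene, SMED30005838, made up 51.3% of the TPM of the set in the positive gate. It had 107109, 22639, 18890 and 111816 TPM in the 4 agat-positive replicates, against 418, 2278, 6531 and 1906 TPM in the 4 agat-negative ones. In positive replicates 1 and 4 it was the most abundant of all 36035 transcripts by TPM, with 10.7% and 11.2% of the total, and in positive replicates 2 and 3 it ranked 5 and 7. In CPM its mean was 10107 ± 8230 in agat-positive cells, against 374 ± 340.2 in agat-negative cells (SD, n = 4 each), with an A of 4.75.

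SMED30030996 came next in TPM, with 24322, 5517, 4416 and 20704 TPM in the positive replicates, against 71.1, 608, 1352 and 467 TPM in the negative ones. SMED30026394 followed at 19723, 4514, 3660 and 16503 TPM in the positive replicates, against 44.4, 475, 1095 and 488 TPM in the negative ones. In both genes all 4 positive libraries lay well above all 4 negative ones, with replicates 1 and 4 on top. The other genes among the 8 highest in TPM averaged 2269 TPM (SMED30005740) to 2710 TPM (SMED30005835) in the positive gate and 115 to 268 TPM in the negative gate. They are SMED30005740, SMED30005835, SMED30021793, SMED30001567 and SMED30009801. The 10 highest held 83.9% of the set's TPM. Of the 78 genes 25 averaged under 100 TPM in agat-positive libraries and 17 were above agat-1 (761 TPM). The median was 204 TPM in the positive gate and 15.2 TPM in the negative gate, where the 8374 genes at 10 CPM or more had medians of 18.7 and 21.8 TPM.

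**Figure D2:**
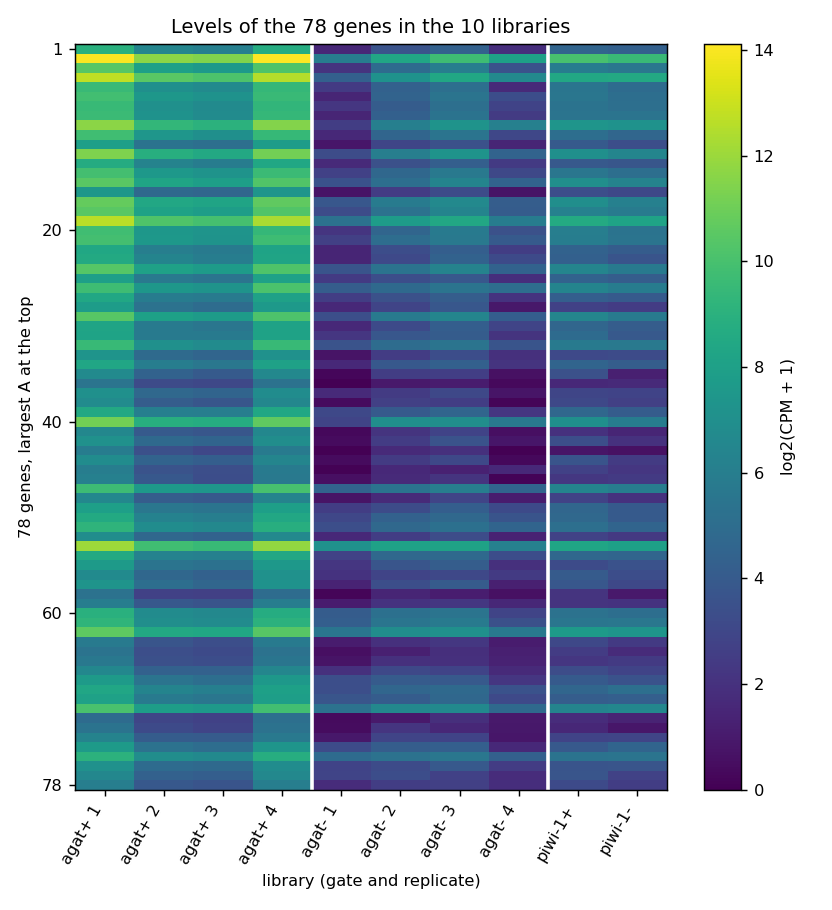
Level of each of the 78 genes (rows, largest A at the top) in each of the 10 libraries (columns, gate and replicate) as log2(CPM + 1). All 78 rows are brighter in agat-positive replicates 1 and 4 than in 2 and 3, and 72 of 78 are brighter in agat-negative replicates 2 and 3 than in 1 and 4.

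The gene with the largest A was SMED30016382. It had 497, 83.3, 67.9 and 431 CPM in the 4 agat-positive replicates, against 2.02, 11.04, 20.0 and 2.56 CPM in the 4 agat-negative ones, a ratio of means of 30.3 and an A of 4.77. The lowest positive library stood 3.4 times above the highest negative one. SMED30025603 had 1385, 256, 196 and 1200 CPM in the positive replicates, against 3.42, 30.1, 65.6 and 10.6 CPM in the negative ones (A = 4.74). After SMED30005838 and SMED30030996, the list of the 8 largest went on with SMED30023398, SMED30020794, SMED30019369 and SMED30035490, at an A of 4.68 to 4.63. All 8 were highest in positive replicate 1 or 4 and, among the negatives, in replicate 3. agat-3 itself had an A of 4.82, above all 78 genes, while 18 of the 78 exceeded agat-1 (4.41) and the same number exceeded agat-2 (4.40). Over the set A ran from 3.04 to 4.77 with a median of 3.96, against a median of -0.11 over the 8374 genes. The rule fixed this difference, so it was not tested.

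The 78 genes kept nearly constant proportions to the agat transcripts within the positive gate. This measure, the CPM of a gene divided by the summed CPM of agat-1, agat-2 and agat-3 in the same library, played no part in the rule and does not depend on how libraries are scaled to each other. It comes from the same positive libraries as A, so it is given as a description, with no test. Summed over the set it was 19.4, 19.8, 21.2 and 17.8 in agat-positive replicates 1 to 4, although the summed agat level itself was 3831, 737, 573 and 3806 CPM. The coefficient of variation (CV, SD over mean) of the ratio over the 4 positive libraries had a median of 0.099 in the set, from 0.036 to 0.265, and a median of 0.863 over the 8374 genes. It was under 0.2 in 74 of the 78 genes, against 1.07% of the 8374. A gene at the same level in every positive library gets a high CV here because the agat level in the denominator varies.

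**Figure D3:**
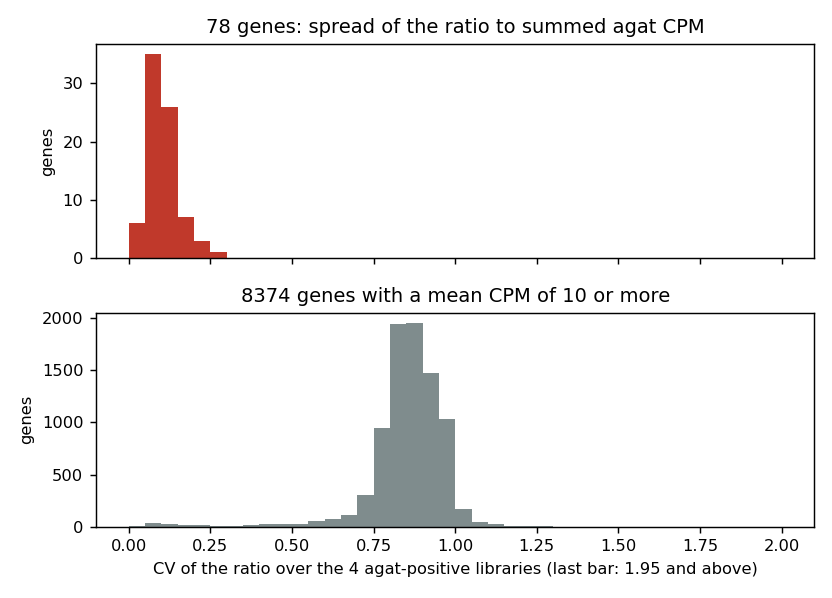
Histograms of the CV, over the 4 agat-positive libraries, of the ratio of a gene's CPM to the summed agat CPM (x axis), as numbers of genes (y axis). The upper panel holds the 78 genes, with a median of 0.099, and the lower panel the 8374 genes averaging at least 10 CPM, with a median of 0.863.

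SMED30010951 followed agat most closely. Its ratio was 0.187, 0.181, 0.197 and 0.188 in agat-positive replicates 1 to 4, with a CV of 0.036. The next were SMED30030952 (CV 0.041), SMED30000058 (CV 0.042) and SMED30005838 (CV 0.044). For SMED30005838 the ratio was 4.36, 4.40, 4.78 and 4.66, so that this transcript and the agat transcripts differed between libraries by nearly the same factor. The loosest was SMED30002215, with ratios of 0.0203, 0.0222, 0.0270 and 0.0137 and a CV of 0.265. SMED30034257 (CV 0.234), SMED30005835 (CV 0.212) and SMED30009801 (CV 0.212) were the other genes above 0.2. In these 4 genes the ratio was highest in positive replicate 3 and lowest in positive replicate 4. The ratio summed over the set had the same highest and lowest libraries, so this order is not particular to them.

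The order of the libraries was shared by the whole set. All 78 genes had both positive replicates 1 and 4 above both 2 and 3, as the agat transcripts did, where 25.5% of the 8374 genes had. This held in all 78 also with TMM-scaled CPM (trimmed mean of M values, a scaling between libraries) and in TPM. A rests on the mean of these same libraries, to which positive replicates 1 and 4 gave most, so the rule favors this order. The 25.5% covers genes not chosen in this way, so the count is a description and not a test. Replicate 1 was highest in 69 genes and replicate 4 in 9, and replicate 3 was lowest in 77.

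The negative gate held the same transcripts at low levels, in an order that followed agat at the high end and less at the low end. The summed agat level was 26.9, 93.6, 202 and 69.6 CPM in the negative libraries, and the summed level of the 78 genes was 705, 2484, 4208 and 1134 CPM. Replicate 3 was the highest negative library in 69 of the 78 genes, and both replicates 2 and 3 lay above both 1 and 4 in 72, where 29.2% of the 8374 genes had that order. With TMM scaling 67 of 78 had it, and in TPM 69. Replicate 4 was the lowest negative library in 25 of the 78 genes, although the summed agat level was lowest in replicate 1. The share of all genes lowest in replicate 4 was not computed. That library was low for many genes, standing below all 4 positive ones in 48.8% of genes at 10 CPM or more. In the other negative libraries 12.8% to 18.7% did, so nothing particular to the set is read from the 25. No gene was at 0 counts in an agat-positive library. In the negative gate 2 of the 78 genes were at 0 in replicate 1 and 1 was in replicate 4. SMED30027539 was at 0 in both, with 2.22 and 2.91 CPM in agat-negative replicates 2 and 3 and 59.6, 10.1, 7.11 and 55.0 CPM in agat-positive replicates 1 to 4.

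Relative to agat, the genes differed in how much of them remained in the negative gate. The mean ratio to agat in the negative libraries, divided by that in the positive libraries, ran from 0.433 to 3.74 with a median of 1.14. It was below 1 in 30 genes and at least 2 in 15. SMED30000058 was slightly higher relative to agat in every negative than in every positive library, with ratios of 0.07795, 0.0745, 0.07917 and 0.0722 in the 4 agat-positive replicates and 0.07925, 0.0853, 0.0874 and 0.0920 in the 4 agat-negative ones. The closest of these values, 0.07917 and 0.07925, were nearly equal. Other genes of the set had the same order with a wider gap, so it is not particular to SMED30000058. SMED30005491 had the most left over, with ratios of 0.0236, 0.0273, 0.0307 and 0.0249 in the positive replicates and 0.238, 0.0967, 0.0275 and 0.0361 in the negative ones. Its excess was largest in negative replicate 1, the library with the least agat. The 36 genes with an A of 4 or more had median negative values of 0.781, 1.15, 1.02 and 0.587 in replicates 1 to 4, relative to their own mean ratio in the positive gate. The 42 genes with an A under 4 had 2.48, 2.25, 1.31 and 1.14. A is the main part of the rule, so this split restates it and is not a test.

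In the piwi-1 pair, with 1 library per gate and no replicate check, the set was detected in both gates, below its level in the agat-positive gate. The 78 genes held 0.470% of assigned counts in the piwi-1-positive and 0.363% in the piwi-1-negative library. All 78 were lower in both of these libraries than in the lowest agat-positive library, where 18.7% of the 8374 genes were. The rule chose the 78 for high agat-positive levels, so nothing is read from this count. The summed ratio to agat was 14.3 in the piwi-1-positive and 15.9 in the piwi-1-negative library, below the 17.8 to 21.2 of the agat-positive libraries.

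The value P itself was used by the rule only to leave out genes at -1 or below. In the set it ran from -0.58 to 2.25 with a median of 0.42, against a median of -0.15 over the 8374 genes. It was above 0 in 64 of the 78 genes, where 43.6% of the 8374 were. With TMM scaling the median was 0.18, with 53 of 78 above 0, and the median over the 8374 genes was -0.39. In TPM 64 of 78 were above 0. The 3 agat genes, at a P of 0.65, 0.42 and 0.50, lay among them. By exact binomial 95% intervals, which cover counting error only, the ratio of CPM was above 1 in 56 genes, where 38.2% of the 8374 genes were, below 1 in 4, where 50.3% were, and not separable from 1 in 18. With TMM scaling it was above 1 in 43 genes, where 29% of the 8374 were, and below 1 in 17, where 60.9% were. The shares of the 8374 genes with a P above 0 were not computed for TMM scaling or TPM. The rule removed low P from the set but not from the 8374 genes, so these contrasts are a description and not a test.

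**Figure D4:**
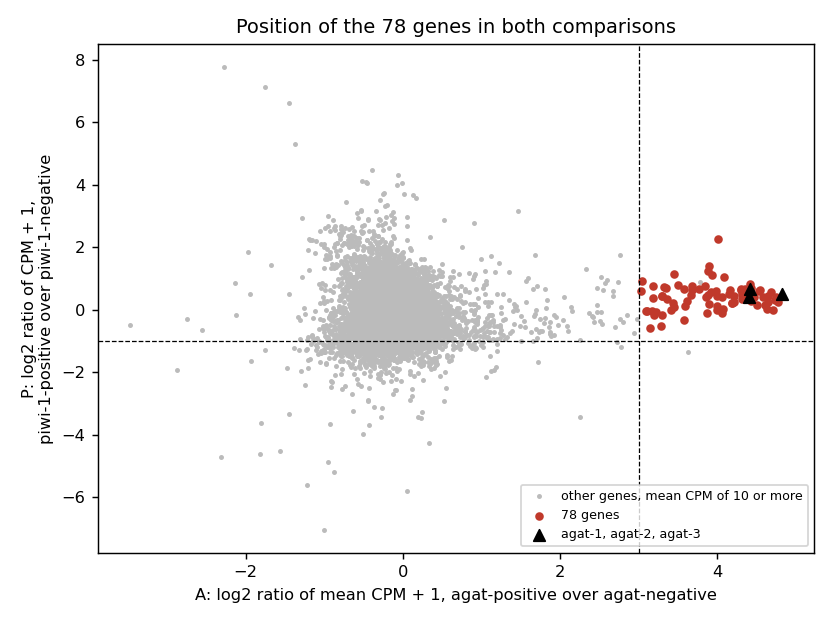
A (x axis, log2 ratio of mean CPM + 1, agat-positive over agat-negative) against P (y axis, log2 ratio of CPM + 1, piwi-1-positive over piwi-1-negative) for the genes averaging at least 10 CPM. Dashed lines mark the limits of the rule at an A of 3 and a P of -1. The 78 genes have an A from 3.04 to 4.77 and a P from -0.58 to 2.25. The 3 agat genes lie toward the high end of A, at 4.40 to 4.82.

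SMED30029823 stood apart in the piwi-1 pair. It had 10.4 CPM in the piwi-1-positive and 1.39 CPM in the piwi-1-negative library, from 365 and 50 counts, a ratio of 7.47 (95% exact interval 5.55 to 10.3). In the agat gates it had an A of 4.01, with 106, 20.8, 14.8 and 94.8 CPM in the 4 agat-positive replicates and 0.168, 4.96, 5.25 and 0.579 CPM in the 4 agat-negative ones. SMED30013885 (ratio 3.18, 2.56 to 3.99), SMED30031294 (interval of the ratio 2.24 to 3.26) and SMED30021257 (ratio 3.45, 2.35 to 5.19) were the next by P. In all, 6 of the 78 genes had a P of 1 or more, or 3 with TMM scaling and 9 in TPM, where 10% of the 8374 genes had in library-size CPM.

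At the low end of P were SMED30024058, with 14.6 CPM in the piwi-1-positive and 22.3 CPM in the piwi-1-negative library (ratio 0.652, 95% exact interval 0.583 to 0.730), SMED30034257 (0.689, 0.630 to 0.752), SMED30030642 (0.779, 0.667 to 0.908) and SMED30030292 (0.889, 0.845 to 0.936). These 4 genes also had more left over in the agat-negative gate than the median gene of the set, at 1.76 to 2.99 times their positive ratio to agat. Their A was 3.15 to 3.58, against a median of 3.96 in the set, and what is left over largely restates A. SMED30005491, with the most left over, had a P of 0.91, so no link between the measures is read. SMED30027539 was the lowest of the set in this pair relative to agat. It had 0.770 CPM in the piwi-1-positive library (27 counts) and 0.557 CPM in the piwi-1-negative one (20 counts), and its ratio to agat there was 0.17 of that in the agat-positive gate, where the median of the set was 0.769.

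Genes were also chosen by the same rule with 1 agat library left out and then read in that library, which had no part in the choice. The 4 libraries of the other gate, with which it was compared, did take part. The shares beside the counts cover genes not chosen by the rule, so the counts are a description and not an independent test. The number chosen was 59 to 86. Left-out positive libraries stood above all 4 negative ones in 59 of 59, 85 of 85, 86 of 86 and 65 of 66 genes for replicates 1 to 4, where 16.6%, 9.28%, 8% and 17% of the genes at 10 CPM or more did. Their median log2 ratios to the negative mean were 4.92, 2.33, 2.09 and 4.76. Replicates 2 and 3 thus kept the direction but not the size, and 9 of 85 and 0 of 86 genes reached a log2 ratio of 3 there. Left-out negative libraries stood below all 4 positive ones in 74 of 74, 81 of 85, 83 of 84 and 71 of 72 genes for replicates 1 to 4, where 18.7%, 15.3%, 12.8% and 48.8% of the genes at 10 CPM or more did. Their median log2 ratios were 5.11, 3.55, 3.12 and 5.09.

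**Figure D5:**
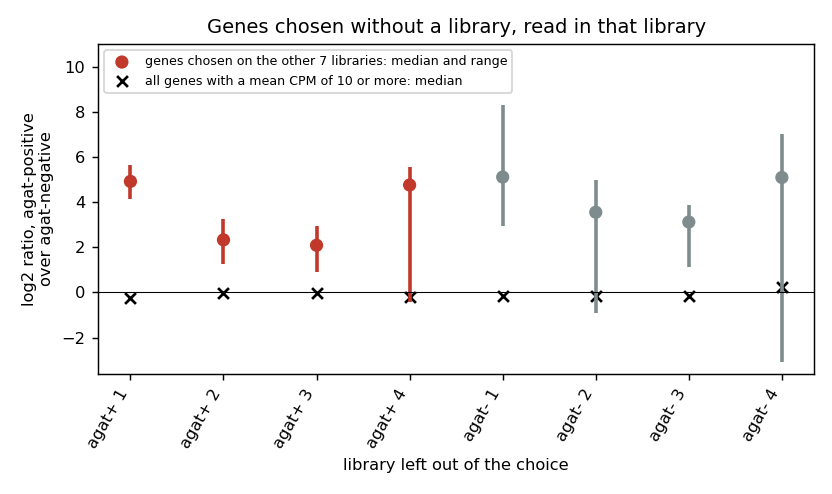
Log2 ratio, agat-positive over agat-negative (y axis), of the genes chosen on the other 7 agat libraries, read in the library left out of the choice (x axis), as median (point) and full range (line), with the median over all genes at 10 CPM or more as a cross. Medians run from 2.09 to 5.11 and the crosses from -0.24 to 0.22.

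In edgeR's quasi-likelihood test over 22954 genes, with 4 against 4 libraries and Benjamini-Hochberg adjustment, 2 genes (0.00871%) were called higher in agat-positive cells at an adjusted p under 0.05, and 0 of the 78 were. At an unadjusted p under 0.05 all 78 were higher, as were 5.26% of the genes tested. Their edgeR adjusted p ran from 0.167 to 0.33, with log2 fold changes of 3.32 to 5.50 and a median of 4.46. Without agat-positive replicate 3 edgeR called 21 of the 78, with 0.414% of all genes called higher. DESeq2 called 77 of the 78, with 1.5% of genes with an adjusted p called higher, and the gene it left out was SMED30027539 (DESeq2 adjusted p = 0.186). The rule used this contrast, so no call is read as support for the set.

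At the limits of the rule the genes graded into the rest. The lowest A in the set belonged to SMED30012026 (3.04), SMED30005491 (3.05) and SMED30008800 (3.10). Just outside lay SMED30002705 (2.98), SMED30026757 (2.94) and SMED30011700 (2.85). On mean CPM, SMED30022784 (10.2) and SMED30021257 (10.5) were just inside, and SMED30027137 (7.77) and SMED30025929 (7.66) just outside. SMED30006473 met the rest of the rule but had a P of -1.34, with 13 counts in the piwi-1-positive and 89 in the piwi-1-negative library. It had 45.5, 6.83, 6.47 and 30.0 CPM in the 4 agat-positive replicates, against 0.588, 1.61, 1.25 and 0.0276 CPM in the 4 agat-negative ones.

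For most of the 78 genes both deposited tables gave similar ratios, and 70 had a log2 ratio of 3 or more in TPM too. The log2 ratio between the agat gates in TPM + 1 minus that in CPM + 1 had a median of -0.19 in the set and of -0.15 over the 8374 genes. SMED30028358 was the exception, named after its values were seen. It had 815, 188, 170 and 1040.1 CPM in the 4 agat-positive replicates, against 21.5, 40.7, 65.3 and 22.0 CPM in the 4 agat-negative ones, an A of 3.85. In TPM it had 30.9, 22.2, 22.1 and 28.0 in the positive replicates, against 20.6, 20.7, 21.0 and 21.6 in the negative ones, a log2 ratio of 0.29. The difference of -3.57 between the tables was the largest fall among the 8374 genes, and the next in the set was -0.84. Its membership therefore rests on the count table alone.

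The set also had a high TPM for its CPM. CPM per TPM, a quantity that increases with transcript length, set to 1 for the median gene at 10 CPM or more, had a median of 0.457 in the set and was below 1 in 64 of the 78 genes. SMED30005838 had the lowest value at 0.104, and SMED30028358 the highest at 8.53. Before scaling to the median gene, CPM per TPM of SMED30028358 averaged 19.9 in the agat-positive and 1.79 in the agat-negative libraries. Its value thus carries the disagreement between counts and TPM described above and is not read as length. Transcript lengths themselves are not used here.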

How the data were processed

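The authors deposited a table of gene counts and a table of TPM values. STAR (2.7.10b) and RSEM (1.3.1) are the tools listed in the submitters' processing notes. Build, annotation and strandedness: not given in the sources used here. Columns were matched to samples by the column names in the labels. The 4 rows naming no gene held 22.8% to 37.0% of reads and were left out of library sizes. Library kits carry no molecular identifiers, so PCR copies count as reads.

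CPM, A, P, ratios to agat and CVs were computed in Python 3.11.15. edgeR 4.0.16 in R 4.3.3 tested 4 against 4 agat libraries (two-sided quasi-likelihood, TMM, filterByExpr, robust, no replicate block), with DESeq2 1.42.0 as an alternative. The edgeR fit was tested on simulated data. Agat-positive replicates 2 and 3 differed by 11.8 in chi-square per gene, and the other pairs of libraries of 1 gate by 41.4 to 301. None is therefore a repeat deposit of the same counts. These values cannot tell whether libraries came from the same pool of cells.

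Genes named are those with the 8 largest A, the 8 highest TPM, the 4 highest and 4 lowest P, the 4 smallest and 4 largest CVs, and those nearest each limit of the rule. Lists by gene name could not be applied. The members and lists were chosen with earlier results of these data known. SMED30027539 and SMED30028358, the split at an A of 4, the order of the negative libraries, the piwi-1 ratios to agat and the comparison of both tables were added after seeing the values.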

Additional observations from a re-analysis of the deposited data

How the results depend on the processing

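The rule gave 58 to 86 genes under every alternative tried, against 78: 59 to 86 without single libraries, 58 without both libraries numbered 4 (56 of them among the 78), and 77 in TPM (69 of them among the 78). The median A was 3.42 to 4.43 under the alternatives, and the median edgeR log2 fold change, another measure of the same contrast, was 4.46. In edgeR 0 of the 78 were called with other scaling factors, without the filter or without both libraries numbered 4, and 0 to 21 without single libraries, the 21 without agat-positive replicate 3. DESeq2 called 77. Over all genes edgeR called 2 higher and 0 lower, 98 higher without agat-positive replicate 3 and 0 with the replicate block, and DESeq2 called 400 higher and 77 lower. The mean share of 4.21% in agat-positive libraries was 12.7% in TPM, 3.20% without SMED30005838 (added after seeing the data), and 3.14% to 5.21% without single libraries. The median P of 0.42 was 0.18 with TMM scaling, 0.45 in TPM and 0.44 with a pseudocount of 0.1. With TMM scaling, added after seeing the data, the piwi-1 ratio's interval lay below 1 in 17 genes rather than 4 and above 1 in 43 rather than 56. Over all left-out libraries 98.9% of genes kept their direction, and 98.6% with TMM scaling and 98.7% in TPM.

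With the replicate block edgeR called 0 of the 78, and 68 rather than 78 had an unadjusted p under 0.05. The share of all genes under that limit was not computed with the block. The rule used this contrast, so the 68 are not read as support for the set. The deviations of libraries of the same number from the gate means correlated at -0.123, -0.0393, -0.0839 and 0.0489. Correlations over every positive-negative combination ran from -0.123 to 0.17. These values cannot decide whether a number marks a shared sort, since a shared sort need not shift both gates alike. The labels do not say that it does, so the numbers are not treated as pairs. Depth limits the counts of the lowest genes, such as the 27 and 20 counts of SMED30027539 in the piwi-1 pair.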

Other observations

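Outside the set, constant proportions to agat were rare. Of the 8374 genes at 10 CPM or more, 90 had a CV of the ratio to agat under 0.2 in the positive gate. They were 74 of the 78 genes, the 3 agat genes and 13 others. All 13 others were higher in every agat-positive than in every agat-negative library, where 4.35% of the 8374 genes were. They also had an A of 2 or more. A low CV requires a gene to vary with agat over the positive libraries, so these counts are a description and not a separate check. SMED30027137, which fell short of 10 CPM, had 52 counts in the piwi-1-positive and 3 in the piwi-1-negative library.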
